A study of Mus musculus with 34 samples.

Results

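The class I histone deacetylases of the mouse were taken as 4 genes, Hdac1, Hdac2, Hdac3 and Hdac8, found by their symbols among the 23951 genes listed in every expression file. All 4 had a value above 0 in every library and passed the filter on low values in every comparison. Expression was measured in 27 of the 34 samples of the study. Hippocampal RNA came from 4 control mice (Hdac1f/f), 5 Hdac1 cKO mice (Hdac1f/f; Nestin-Cre), 6 5XFAD mice (Hdac1f/f; 5XFAD) and 5 compound mice (Hdac1f/f; Nestin-Cre; 5XFAD). Control and Hdac1 cKO mice were 13 to 14 months old and the others 13 months. GFAP+ nuclei, sorted from cortex at 13 months, came from 3 control and 4 Hdac1 cKO mice. All groups, controls included, carried the floxed Hdac1 alleles. Nestin-Cre acts in the neural lineage, so neurons and astrocytes lose the gene, while microglia, vascular cells and other cells outside that lineage keep it. The 5XFAD transgenes are driven by the Thy1 promoter. The comparisons ask how much Hdac1 RNA was left after the deletion, whether the 5XFAD background changed that, and whether the RNA of the relatives was higher where Hdac1 was lost.

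Class I histone deacetylases are zinc-dependent enzymes that remove acetyl groups from lysines of histones and other proteins. HDAC1 and HDAC2 are close relatives that share the SIN3, NuRD, CoREST and MiDAC complexes and can replace each other in many tissues. HDAC3 works in the NCoR/SMRT corepressor complex. HDAC8 acts outside these complexes, and its best known substrate is the cohesin subunit SMC3. In the brain, these enzymes are known from work on memory, neuronal survival and DNA repair.

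Because a knockout is read here from RNA counted per gene, the sequence of Hdac1 and of its near copies is shown first. Hdac1 lies at chr4:129193348-129219957 on the minus strand of mm9, with 14 exons, and Hdac2 at chr10:36694350-36721695 on the plus strand, also with 14 exons. Their coding sequences were 76.8% identical over 1442 aligned bases. A search of mm9 with the Hdac1 transcript of 2038 bases found 11 other loci with at least 500 aligned bases. The closest, at chr17:78890879-78892881, was 98.8% identical over 2004 bases and is annotated as Gm10093, a copy of the transcript in a single exon. A stretch of 60 coding bases in exon 5 shows how near this copy is compared with Hdac2. Among stretches that align without gaps within 1 exon of both genes, it has the most differences between Hdac1 and the copy, and capitals mark bases that differ from Hdac1. Hdac1 is at chr4:129200219-129200278 (minus strand), the copy at chr17:78891344-78891403 (plus strand) and Hdac2, also in exon 5, at chr10:36709023-36709082 (plus strand).
Hdac1: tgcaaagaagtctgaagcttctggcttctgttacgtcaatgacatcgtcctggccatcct
copy of Hdac1: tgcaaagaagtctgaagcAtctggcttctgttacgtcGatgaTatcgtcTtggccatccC
Hdac2: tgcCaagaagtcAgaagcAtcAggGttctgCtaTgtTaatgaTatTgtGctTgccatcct
In this stretch the copy differed from Hdac1 at 5 bases and Hdac2 at 12. Over the whole Hdac1 transcript, 1520 of 1989 windows of 50 bases (76.4%) had an exact match elsewhere among the loci found, and over the last 500 bases 264 of 451 windows (58.5%) had one. None of the windows of the Hdac2, Hdac3 or Hdac8 transcripts had such a match. Gm10093 has no row in the expression files, so its own level was not measured. Whether reads of the copies entered the Hdac1 values was not tested.

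The number of fragments behind each value could be worked out for the 4 genes. FPKM is a fragment count divided by the length of the transcript and the depth of the library, so that a gene's value times the relative depth of the library moves in steps of 1 fragment. For each of the 4 genes these products were whole multiples of a single step in all 20 hippocampal libraries and in all 7 libraries of nuclei, within 0.05 of a whole number. Fragment numbers given here assume that the largest such step is 1 fragment, and intervals made from them cover counting error only. In hippocampus the values rested on 5 to 110 fragments for Hdac1, 57 to 282 for Hdac2, 46 to 142 for Hdac3 and 9 to 48 for Hdac8, and in nuclei on 106 to 659 fragments. Relative depth ran from 0.754 to 2.35 among hippocampal libraries, with control 1 set to 1.

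Hdac1, the targeted gene, was measured in every hippocampal library. In control mice 1 to 4 its level was 6.42, 8.71, 10.7 and 5.91 FPKM, from 37, 110, 65 and 50 fragments. In Hdac1 cKO mice 1 to 5 it was 3.00, 3.03, 2.62, 2.70 and 2.36 FPKM, from 26, 28, 27, 29 and 32 fragments. The groups did not overlap, and the highest cKO value lay below the lower 95% counting bound of every control mouse, of which the lowest was 4.39 FPKM, in control 4.

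In 5XFAD mice 1 to 6 Hdac1 stood at 9.33, 9.54, 6.6, 6.10, 9.64 and 8.15 FPKM. In compound mice 1 to 5 it stood at 1.82, 2.52, 1.15, 1.86 and 2.24 FPKM, from 10, 15, 5, 24 and 21 fragments. Every compound mouse was below every 5XFAD and every control mouse, and 4 of the 5 were also below every Hdac1 cKO mouse, compound 2 being the exception.

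**Figure D1:**
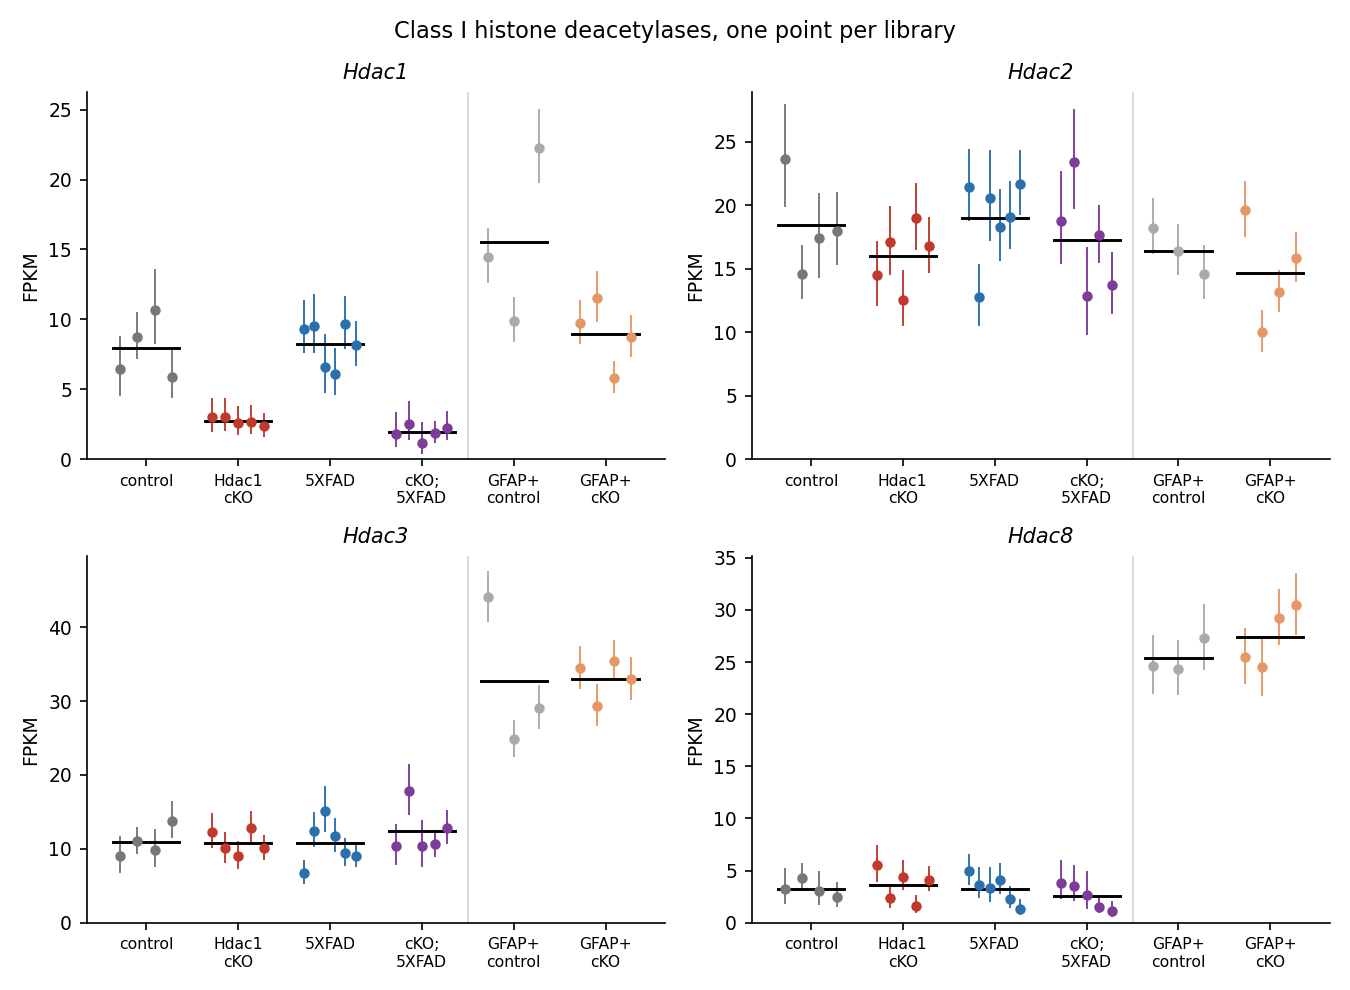
Level of each class I gene in FPKM (vertical axes, from 0) in each library, by group; points are libraries in replicate order, thin bars the 95% Poisson interval of the fragments behind the value, and black lines group means. Hdac1 was at 2.36 to 3.03 FPKM in Hdac1 cKO and 1.15 to 2.52 FPKM in compound hippocampus, below all control and 5XFAD mice, while the groups overlapped for Hdac2, Hdac3 and Hdac8 and, in nuclei, also for Hdac1.

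Control hippocampus averaged 7.93 ± 2.20 FPKM of Hdac1 (SD, n = 4), and Hdac1 cKO hippocampus averaged 2.74 ± 0.279 FPKM (SD, n = 5). The cKO mean was thus 34.5% of the control mean, and single cKO mice ran from 29.8% to 38.2%. In whole-tissue RNA, fewer cells of a type and less RNA per cell cannot be told apart. On the log2(FPKM + 1) scale, which understates changes of low genes, Hdac1 fell by 1.23 (SE 0.164; 95% interval -1.58 to -0.87) in limma's moderated test, with adjusted p = 0.0236. The two-sided exact permutation test over these mice gave p = 0.00794, the smallest that 4 against 5 mice allow. Following the thresholds in the study's methods, a gene was called where it changed 1.5-fold or more with p under 0.05 before adjustment. Hdac1 was the only one of the 4 members called, against 3.36% of the 14265 genes tested, and it was among the 0.154% of genes with an adjusted p under 0.05. Its adjusted p was at or above 0.05 in 6 of the 9 limma fits that left out 1 mouse, with the highest, 0.0874, without control 3, and was 0.129 without moderation.

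Loss was measured again in mice that share no animal with this comparison. The 5XFAD mice averaged 8.23 ± 1.56 FPKM of Hdac1 (SD, n = 6) and the compound mice 1.92 ± 0.516 FPKM (SD, n = 5). The compound mean was 23.3% of the 5XFAD mean, and single compound mice ran from 14.0% to 30.6%. Hdac1 changed by -1.66 on the log2 scale (SE 0.161; 95% interval -2.01 to -1.32) with adjusted p = 0.000785 in limma, and the exact permutation test gave p = 0.00216, the smallest that 6 against 5 mice allow. Of the members, Hdac1 alone was called here, against 1.28% of 14326 genes. It was the single gene with an adjusted p under 0.05, which is 0.00698% of the genes tested.

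With both backgrounds in one additive model of 20 mice, Hdac1 had the lowest p of 14389 genes. Its log2 fold change was -1.47 (SE 0.122; 95% interval -1.72 to -1.21) with adjusted p = 4.64e-07 in limma. Called genes made up 1.16% in this fit, and genes with an adjusted p under 0.05 made up 0.0139%.

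The spread of Hdac1 among mice was set against counting error. In Hdac1 cKO mice the chi-square of the fragments, given the relative depth of the libraries, was 0.314 per degree of freedom, and in compound mice 0.719. These values are at or below 1, the value that counting error alone gives on average, so no spread beyond counting error was seen. With 26 to 32 fragments per library in Hdac1 cKO and 5 to 24 in compound mice, differences in residual Hdac1 among mice of 1 group could be missed. In control mice the same quantity was 4.23, and in 5XFAD mice 2.49.

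Residual Hdac1 was then compared between compound and Hdac1 cKO mice, which are the mice of the comparisons above. The study's sample numbers place control and Hdac1 cKO libraries in a separate block from 5XFAD and compound libraries. The 5XFAD background and this block cannot be told apart. Median relative depth was 1.79 in Hdac1 cKO and 1.03 in compound libraries. The compound mean was 70.0% of the cKO mean, with a log2 fold change of -0.37 (95% interval -0.71 to -0.04; unadjusted p = 0.0314, adjusted p = 0.408 in limma), and the exact permutation test gave p = 0.0159. The change was under the 1.5-fold threshold, so Hdac1 was not called, and none of the other members was, against 3.55% of 14195 genes. Whether the loss itself differed between backgrounds is the interaction of Hdac1 loss and 5XFAD, which was -0.44 for Hdac1 (95% interval -0.92 to 0.05; unadjusted p = 0.0735, adjusted p = 0.590 in limma). No member was called in that interaction, against 4.07% of genes, but with a pseudocount of 0.1 Hdac1 passed the thresholds (-0.60, unadjusted p = 0.0482, adjusted p = 0.558 in limma).

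Where Hdac1 was intact, its level in 5XFAD mice overlapped that of the controls. The log2 fold change was 0.06 (95% interval -0.32 to 0.44; adjusted p = 0.929 in limma), which is 0.804 to 1.35 times the control level of FPKM + 1. Hdac2, Hdac3 and Hdac8 had log2 fold changes of 0.04, -0.04 and -0.04. No member was called, against 2.95% of 14402 genes, and the exact permutation p of the 4 members ran from 0.776 to 0.881. This comparison shares its control mice with the first one. Its groups also come from the separate blocks of samples, so background and block cannot be told apart here either.

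GFAP is an intermediate filament of astrocytes, and the sorted nuclei give the deletion in a population enriched for them. Their Hdac1 level was 14.5, 9.91 and 22.3 FPKM in control samples 1, 3 and 4, from 210, 156 and 281 fragments. In Hdac1 cKO samples 1 to 4 it was 9.71, 11.5, 5.80 and 8.73 FPKM, from 156, 161, 106 and 136 fragments. The groups overlapped, since cKO sample 2 was above control sample 3, and the other 3 cKO samples were below all controls.

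The mean in cKO nuclei, 8.95 ± 2.40 FPKM (SD, n = 4), was 57.6% of the control mean of 15.5 ± 6.25 FPKM (SD, n = 3), and single cKO samples ran from 37.3% to 74.3%. Hdac1 fell by 0.70 on the log2(FPKM + 1) scale (95% interval -1.32 to -0.08; unadjusted p = 0.0308, adjusted p = 0.984 in limma). By the study's thresholds it was the only member called, against 2.58% of 15070 genes, and 0.0133% of genes had an adjusted p under 0.05, Hdac1 not among them. The exact permutation p was 0.114, where 3 against 4 samples allow 0.0286. In limma the call was lost without control sample 4, where the log2 fold change was -0.42 (unadjusted p = 0.154), and without control sample 1 (-0.71, unadjusted p = 0.0652), cKO sample 3 (-0.53, unadjusted p = 0.0812) or cKO sample 4 (-0.70, unadjusted p = 0.0512).

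The losses in hippocampus and in nuclei are not directly comparable. Hippocampal values come from 3′ libraries of whole-tissue RNA and nuclear values from full-length libraries of nuclear RNA in another brain region, and the difference between their losses was not tested. In nuclei the fragments of Hdac1 varied more than counting error gives, with a chi-square per degree of freedom of 35.7 in control and 10.8 in cKO samples.

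Markers of other cell types were detected in the sorted nuclei. Of all genes tested in nuclei, 2.58% were called between cKO and control samples. All 8 astrocyte markers were detected, and their summed level was 2367 to 2716 FPKM in control and 2480 to 2767 FPKM in cKO nuclei, against 420 to 667 FPKM over the hippocampal libraries. All 12 microglia markers were detected too, at a summed 89.7 to 183 FPKM in control and 59.2 to 170 FPKM in cKO nuclei. The 7 oligodendrocyte markers summed to 638 to 1237 FPKM and 454 to 1132 FPKM. The 6 mural cell markers summed to 218 to 350 FPKM and 218 to 296 FPKM, against 41.7 to 70.9 FPKM over the hippocampal libraries. The 2 oligodendrocyte precursor markers summed to 16.5 to 30.2 FPKM and 10.6 to 29.4 FPKM, against 3.22 to 5.91 FPKM in hippocampus. The 8 neuron markers summed to 185 to 272 FPKM and 184 to 212 FPKM, against 1468 to 1867 FPKM in hippocampus. Of 7 choroid plexus markers tested, 2 were called higher in cKO nuclei, with sums of 18.8 to 155 FPKM in control and 118.2 to 272 FPKM in cKO samples for the list, and 1 of 9 endothelial markers was called lower, with sums of 94.6 to 125 and 58.7 to 103 FPKM. The part of these cells in the Hdac1 values of nuclei was not tested.

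In hippocampus, markers of other cell types differed between the genotypes. Of all genes tested, 3.36% were called in Hdac1 cKO against control and 1.28% in compound against 5XFAD. The shares were 2.95% in 5XFAD against control and 1.16% over both backgrounds. All 8 choroid plexus markers were called lower in Hdac1 cKO than in control mice, and their summed level was 592 to 20498 FPKM in control, 59.8 to 1635 in Hdac1 cKO, 56.5 to 8012 in 5XFAD and 62.7 to 14084 FPKM in compound mice. Between compound and 5XFAD mice none of the 8 was called, with a median log2 fold change of -1.26 and median sums of 163 and 4390 FPKM, and over both backgrounds all 8 were called lower, with a median of -2.12. All 4 ependyma markers, of the cells that line the ventricles, were called lower in Hdac1 cKO than in control mice, with sums of 34.0 to 45.0 and 66.1 to 187 FPKM. Between 5XFAD and control mice 3 of the 4 were called lower (median log2 fold change -0.97), and between compound and 5XFAD mice none was (median -0.0031). The summed level of 8 astrocyte markers was 420 to 474 FPKM in control, 422 to 482 in Hdac1 cKO, 478 to 547 in 5XFAD and 555 to 667 FPKM in compound mice, so that the latter pair of groups did not overlap, with 1 marker called higher in compound mice. Of 4 meningeal fibroblast markers tested, 1 was called lower in Hdac1 cKO than in control mice, and the sums of all 5 were 41.7 to 69.9 and 62.0 to 124 FPKM. Nearly all of the choroid plexus sum was Ttr, the thyroxine carrier of the choroid plexus. Control mice 1 to 4 had 576, 17485, 20146 and 12903 FPKM of Ttr, and the 2 with the most, mice 2 and 3, also had the most Hdac1, 8.71 and 10.7 FPKM, against 6.42 and 5.91 FPKM in mice 1 and 4. The 5XFAD mice 1 to 6 had 3058, 7892, 5554, 153, 53.8 and 6617 FPKM of Ttr, and the 2 with the least, mice 4 and 5, had the lowest and the highest Hdac1 of the group, 6.10 and 9.64 FPKM. Compound 1 had 13910 FPKM of Ttr, against 58.9 to 265 FPKM in the other compound mice, and 1.82 FPKM of Hdac1. Ttr was at 576 to 20146 FPKM in control and 56.5 to 1608 FPKM in Hdac1 cKO mice, so a fit can hardly tell it from genotype there. With Ttr as a covariate the log2 fold change of Hdac1 was -1.10 in Hdac1 cKO against control (unadjusted p = 0.0032, adjusted p = 0.590 in limma, where adjusted p ran from 0.00156 to 0.590 over all settings tried, leaving out single libraries included). In compound against 5XFAD mice it was -1.66 with Ttr as a covariate (adjusted p = 0.00436 in limma, with a range of 6.52e-06 to 0.0342 over all settings), against -1.66 without. The part of these cells in the Hdac1 result was not tested.

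The 12 microglia markers, from cells that keep Hdac1, summed to 258 to 345 FPKM in control, 287 to 312 in Hdac1 cKO, 624 to 822 in 5XFAD and 700 to 1370 FPKM in compound mice. They were highest in the group in which residual Hdac1 was lowest, and their part in that result was not tested. None of the 12 was called between Hdac1 cKO and control mice, beside 3.36% of all genes. The neuron markers, 8 genes, summed to 1559 to 1843 FPKM in control and 1594 to 1867 in Hdac1 cKO mice. None of them was called in any hippocampal comparison, where 1.16% to 4.07% of all genes were.

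**Figure D2:**
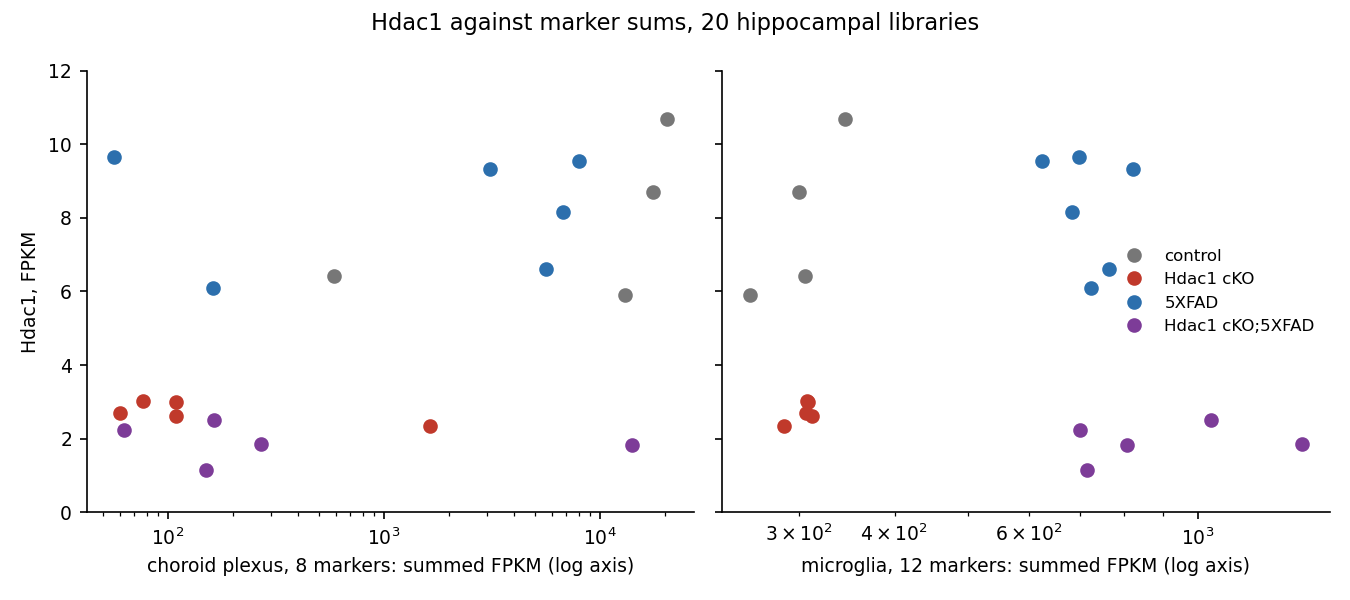
Hdac1 in FPKM (vertical axis, from 0) against the summed FPKM of 8 choroid plexus markers (left, log axis) and of 12 microglia markers (right, log axis), one point per hippocampal library and coloured by group. Hdac1 separates the groups with Cre, at 1.15 to 3.03 FPKM, from those without, at 5.91 to 10.7 FPKM.

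Hdac2, the closest relative of Hdac1 and its partner in the shared complexes, was the most abundant member in hippocampus. In control mice 1 to 4 its level was 23.7, 14.6, 17.4 and 18 FPKM, and in Hdac1 cKO mice 1 to 5 it was 14.5, 17.1, 12.6, 19.0 and 16.8 FPKM. The highest value was a control, the lowest 2 were cKO mice, and the rest overlapped. The cKO mean was 86.7% of the control mean, with a log2 fold change of -0.19 (95% interval -0.51 to 0.13; adjusted p = 0.678 in limma) and an exact permutation p of 0.302. That change was -0.07 without control 1, -0.29 without control 2 and -0.48 with Ttr as a covariate, and was called in none of these.

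In the mice with 5XFAD, Hdac2 was at 21.4, 12.8, 20.5, 18.3, 19.1 and 21.7 FPKM in 5XFAD mice 1 to 6 and at 18.8, 23.4, 12.9, 17.6 and 13.7 FPKM in compound mice 1 to 5. Compound 2 held the highest value and 5XFAD 2 the lowest. Between the groups the log2 fold change was -0.14 (95% interval -0.49 to 0.21; adjusted p = 0.857 in limma; exact permutation p = 0.446).

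Over both backgrounds the 95% interval of the Hdac2 change was 0.760 to 1.05 times the level with Hdac1, on the scale of FPKM + 1, so that a larger rise than 1.05-fold lay outside it. In GFAP+ nuclei Hdac2 was at 18.3, 16.4 and 14.6 FPKM in control samples and 19.6, 9.997, 13.2 and 15.8 FPKM in cKO samples 1 to 4. The log2 fold change there was -0.19 (95% interval -0.67 to 0.29; adjusted p = 0.984 in limma; exact permutation p = 0.514). It was -0.33 without cKO sample 1 and -0.0306 without cKO sample 2, the highest and the lowest of that group, and was not called in either fit.

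Hdac3, the catalytic subunit of the NCoR/SMRT complex, lies at chr18:38095498-38114642 on the minus strand of mm9. It was at 9.02, 11.03, 9.82 and 13.8 FPKM in control mice 1 to 4 and at 12.3, 10.1, 9.03, 12.8 and 10.1 FPKM in Hdac1 cKO mice 1 to 5. Every cKO value lay within the range of the controls. The log2 fold change was -0.003 (95% interval -0.31 to 0.30; exact permutation p = 0.984).

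Compound mice had 10.4, 17.8, 10.4, 10.6 and 12.8 FPKM of Hdac3 against 6.70, 12.4, 15.2, 11.7, 9.46 and 9.07 FPKM in 5XFAD mice. Compound 2 was again the highest and 5XFAD 1 the lowest. The log2 fold change was 0.20 (95% interval -0.20 to 0.60; adjusted p = 0.835 in limma; exact permutation p = 0.372), and over both backgrounds the interval was 0.9002 to 1.29 times the level with Hdac1. In nuclei the level was 44.1, 24.9 and 29.1 FPKM in control and 34.5, 29.3, 35.4 and 33.0 FPKM in cKO samples, with a log2 fold change of 0.05 (95% interval -0.37 to 0.48; exact permutation p = 0.771).

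Hdac8, the member that deacetylates cohesin, lies at chrX:99479978-99700698 on the minus strand and was the least abundant in hippocampus with Hdac1 intact. It was at 3.23, 4.33, 3.05 and 2.47 FPKM in control mice and at 5.50, 2.39, 4.39, 1.62 and 4.12 FPKM in Hdac1 cKO mice, which held both the highest and the lowest value. Its log2 fold change was 0.05 (95% interval -0.50 to 0.60; exact permutation p = 0.921). At 15 to 48 fragments per library its interval reached 1.51-fold on the scale of FPKM + 1, which at this low level is a larger fold of FPKM itself. The fragments of Hdac8 in Hdac1 cKO mice varied more than counting error gives, with a chi-square per degree of freedom of 5.83.

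In the 5XFAD background Hdac8 was at 4.92, 3.65, 3.37, 4.07, 2.28 and 1.37 FPKM without and 3.81, 3.51, 2.68, 1.53 and 1.12 FPKM with the deletion. This was a log2 fold change of -0.29 (95% interval -0.85 to 0.28; adjusted p = 0.834 in limma; exact permutation p = 0.348). Over both backgrounds the interval was 0.689 to 1.20 times the level with Hdac1. In nuclei Hdac8 was at 24.7, 24.4 and 27.3 FPKM in control and 25.5, 24.5, 29.2 and 30.5 FPKM in cKO samples, with a log2 fold change of 0.10 (95% interval -0.22 to 0.42; exact permutation p = 0.343).

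**Figure D3:**
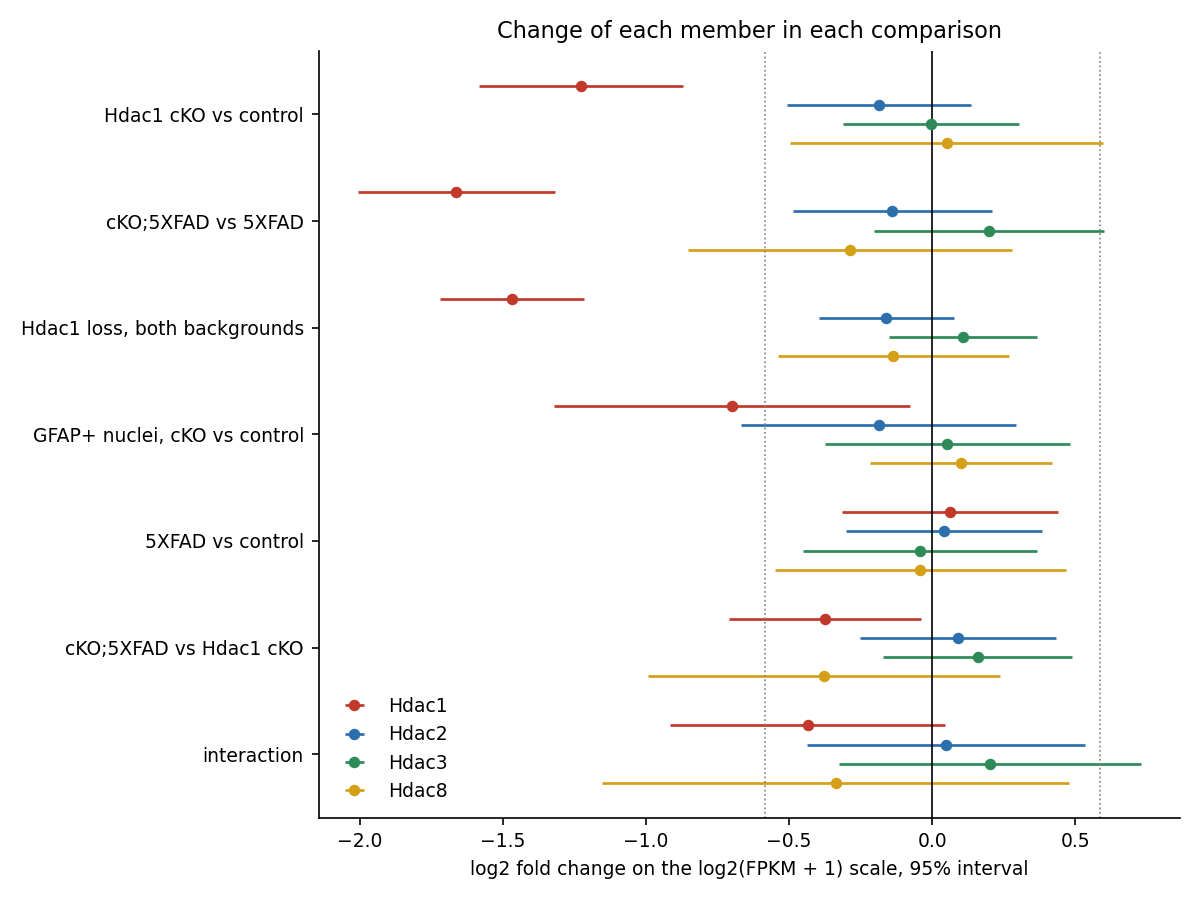
Log2 fold change of each class I gene (horizontal axis, log2(FPKM + 1) scale) in the 5 comparisons of 2 groups, in the fit over both backgrounds and in the interaction, with 95% intervals from limma; dotted lines mark a 1.5-fold change. The intervals of Hdac1 lie below 0 in the comparisons of mice with and without Cre and in compound against Hdac1 cKO mice, and every interval of Hdac2, Hdac3 and Hdac8 includes 0.

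No relative was called in any of these comparisons, in either direction. The smallest exact permutation p of Hdac2, Hdac3 and Hdac8 over the 5 comparisons of 2 groups was 0.262, for Hdac8 in compound against Hdac1 cKO mice. A p above the threshold does not show equal levels, and the intervals above give the changes that remain possible.

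The order of the members, read on FPKM, which is per length, was stable within hippocampal libraries apart from Hdac1. Hdac2 was above Hdac3 and Hdac3 above Hdac8 in 20 of 20 libraries. Hdac1 was below Hdac2 in all 20, below Hdac3 in 17 and above Hdac8 in 14. It was above Hdac8 in 4 of 4 control and 6 of 6 5XFAD mice, but in 2 of 5 Hdac1 cKO and 2 of 5 compound mice. The libraries with Hdac1 above Hdac3 were 1 control and 2 5XFAD mice. Control means were 18.4 ± 3.80 FPKM for Hdac2, 10.9 ± 2.09 for Hdac3, 7.93 ± 2.20 for Hdac1 and 3.27 ± 0.774 for Hdac8 (SD, n = 4 each), of which Hdac3 and Hdac1 overlapped between mice. In the GENCODE models the 4 transcripts have similar lengths, 1936 to 2038 bases. Multiplying by these lengths changed none of the counts over the 20 libraries. The lengths behind the deposited FPKM are not given. The step taken as 1 fragment was 0.170 FPKM for Hdac2 and 0.202 FPKM for Hdac8 at a relative depth of 1. In 5XFAD 5, counted above with Hdac1 over Hdac3, both genes had 103 fragments.

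In nuclei the order was another. Hdac3 was above Hdac8, and Hdac8 above both Hdac2 and Hdac1, in 7 of 7 libraries, and Hdac1 was below Hdac2 in 5. Control means were 32.7 ± 10.1 FPKM for Hdac3, 25.4 ± 1.59 for Hdac8, 16.4 ± 1.82 for Hdac2 and 15.5 ± 6.25 for Hdac1 (SD, n = 3 each), and Hdac3 and Hdac8 overlapped between samples, as did Hdac2 and Hdac1. Library type, RNA source, region and cell type all differ from hippocampus and cannot be told apart.

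Summed over the 4 genes, class I RNA was 42.3, 38.7, 41.0 and 40.2 FPKM in control mice 1 to 4 and 35.3, 32.6, 28.6, 36.1 and 33.3 FPKM in Hdac1 cKO mice 1 to 5. The groups did not overlap, and the means differed by -7.37 FPKM (-18.2%). Hdac1 itself went from 7.93 to 2.74 FPKM, while Hdac2, Hdac3 and Hdac8 together went from 32.6 ± 2.95 to 30.4 ± 2.88 FPKM (SD, n = 4 and 5).

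The sum in 5XFAD mice was 38.4 to 45.7 FPKM, and in compound mice 1 to 5 it was 34.7, 47.2, 27.1, 31.7 and 29.9 FPKM. In 4 of the 5 compound mice it was below every 5XFAD mouse, and in compound 2, the mouse with high Hdac2 and Hdac3, it was above all of them. The means differed by -7.12 FPKM (-17.3%), and by -10.4 FPKM without compound 2. In nuclei the sum was 75.6 to 101 FPKM in control and 75.4 to 89.3 FPKM in cKO samples, a difference of means of -6.04 FPKM. Leaving out 1 library at a time gave -13.3 to -0.355 FPKM, the latter without control sample 1. No test was run on these sums.

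Hdac1 accounted for 19.6 ± 5.59% of the class I sum in control, 8.30 ± 0.988% in Hdac1 cKO, 20.1 ± 4.38% in 5XFAD and 5.64 ± 1.20% in compound hippocampus (SD, n = 4, 5, 6 and 5). In nuclei it went from 17.1 ± 5.91% to 10.8 ± 3.46% (SD, n = 3 and 4). The ratio of Hdac2 to Hdac1 was 1.63 to 3.69 in control and 1.34 to 3.11 in 5XFAD mice, against 4.80 to 7.12 in Hdac1 cKO and 6.12 to 11.2 in compound mice. It was 0.657 to 1.65 in control and 0.866 to 2.27 in cKO nuclei, where the groups overlapped.

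**Figure D4:**
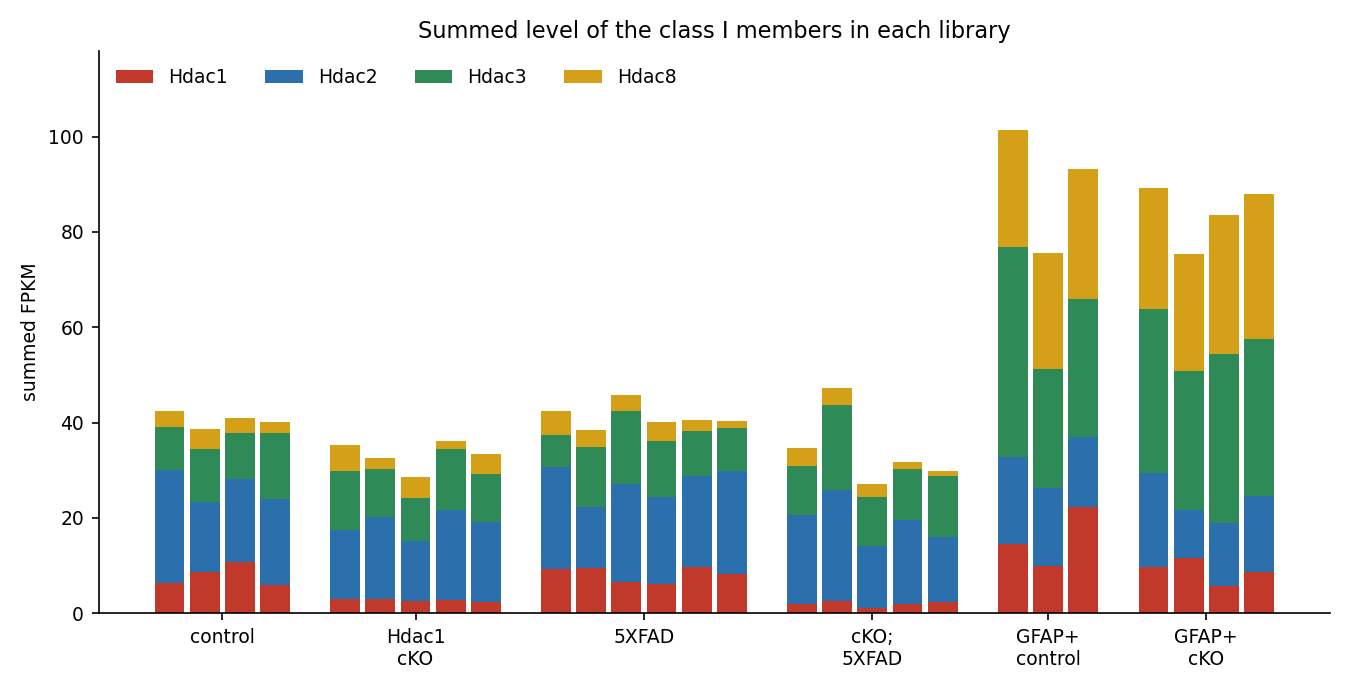
Summed FPKM of the class I genes (vertical axis, from 0) in each library, stacked by gene and ordered by replicate within each group. The sum was 38.7 to 42.3 FPKM in control and 28.6 to 36.1 FPKM in Hdac1 cKO hippocampus, and the Hdac1 segment was reduced in both groups with Cre.

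The partners of the class I enzymes were taken from lists of complex members and related enzymes, 70 genes in all that had a row in the files, and all of them were tested. None was called in any comparison by limma, against 3.36% of all genes in Hdac1 cKO against control, 1.28% in compound against 5XFAD and 2.58% in nuclei. At an unadjusted p under 0.05 there were 4, 2 and 2 of the 70 in these comparisons, where 11.7%, 6.61% and 4.7% of all genes had such a p. The median log2 fold change of the 70 was -0.04, -0.10 and 0.02, beside -0.00068, -0.00046 and -0.0065 over all genes tested.

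The other zinc-dependent histone deacetylases, Hdac4 to Hdac7 and Hdac9 to Hdac11, had log2 fold changes between -0.09 and 0.28 in Hdac1 cKO against control, between -0.24 and 0.01 in compound against 5XFAD mice and between -0.31 and 0.17 in nuclei. Hdac4, a class IIa enzyme that binds the HDAC3 complex, had the highest of these in Hdac1 cKO mice, 0.28 (adjusted p = 0.555 in limma), and the lowest in compound mice, -0.24 (adjusted p = 0.799). Hdac11, the class IV enzyme, was the most abundant of the list in hippocampus, at 79.6 ± 7.94 FPKM in control and 91.3 ± 17.1 FPKM in Hdac1 cKO mice (SD, n = 4 and 5). Its log2 fold change was 0.18 (adjusted p = 0.626).

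In the complexes that hold HDAC1 and HDAC2, the 16 listed SIN3 genes ranged from -0.17 to 0.35 in Hdac1 cKO against control and from -0.36 to 0.25 in compound against 5XFAD mice. The scaffold gene Sin3a was at -0.32 in the latter (unadjusted p = 0.0403, adjusted p = 0.736 in limma). The 13 NuRD genes ranged from -0.26 to 0.16 and from -0.33 to 0.09, the 9 CoREST genes from -0.25 to 0.03 and from -0.28 to 0.18, and the 3 MiDAC genes from -0.22 to 0.08 and from -0.26 to 0.19.

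In nuclei the NuRD remodeller gene Chd3 had a log2 fold change of 0.46 (unadjusted p = 0.0173, adjusted p = 0.984 in limma). The 5 genes of the NCoR/SMRT complex ranged from -0.34 to 0.11 in Hdac1 cKO mice and from -0.32 to -0.09 in compound mice. In the latter all 5 were below 0, beside 50.1% of all genes, and none was called. Also below 0 there were 6 of 7 other zinc-dependent deacetylases, 10 of 16 SIN3, 10 of 13 NuRD and 6 of 9 CoREST genes. So were 8 of 10 acetyltransferases, but only 1 of 3 MiDAC and 4 of 9 cohesin genes.

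Cohesin genes include the substrate of HDAC8. All 9 cohesin genes and regulators were below 0 in Hdac1 cKO against control, with a median of -0.20, and 4 of 9 in compound against 5XFAD mice, with a median of 0.0042, where 50.2% and 50.1% of all genes were below 0. In nuclei 3 of 9 were below 0, with a median of 0.012, beside 51% of all genes. All 9 were also below 0 in 5XFAD against control mice, with Hdac1 intact and the same controls, with a median of -0.14 beside 51.8% of all genes. The lowest unadjusted p in Hdac1 cKO mice was that of Smc1a, a ring subunit, at -0.30 (unadjusted p = 0.00435, adjusted p = 0.203 in limma), and Rad21 was at -0.21 (unadjusted p = 0.0374, adjusted p = 0.386). Smc3 was at -0.19 (unadjusted p = 0.089, adjusted p = 0.510), and at -0.29 in 5XFAD against control (unadjusted p = 0.0123, adjusted p = 0.313). The 10 histone acetyltransferases, enzymes of the opposite activity, ranged from -0.44 to 0.11 and from -0.23 to 0.35, with Hat1 the lowest in Hdac1 cKO (unadjusted p = 0.043, adjusted p = 0.407) and Kat8 the highest in compound mice (unadjusted p = 0.0158, adjusted p = 0.734). Of the 10, 9 were below 0 in Hdac1 cKO against control (median -0.13), 8 in compound against 5XFAD (median -0.06) and 4 in nuclei (median 0.10).

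**Figure D5:**
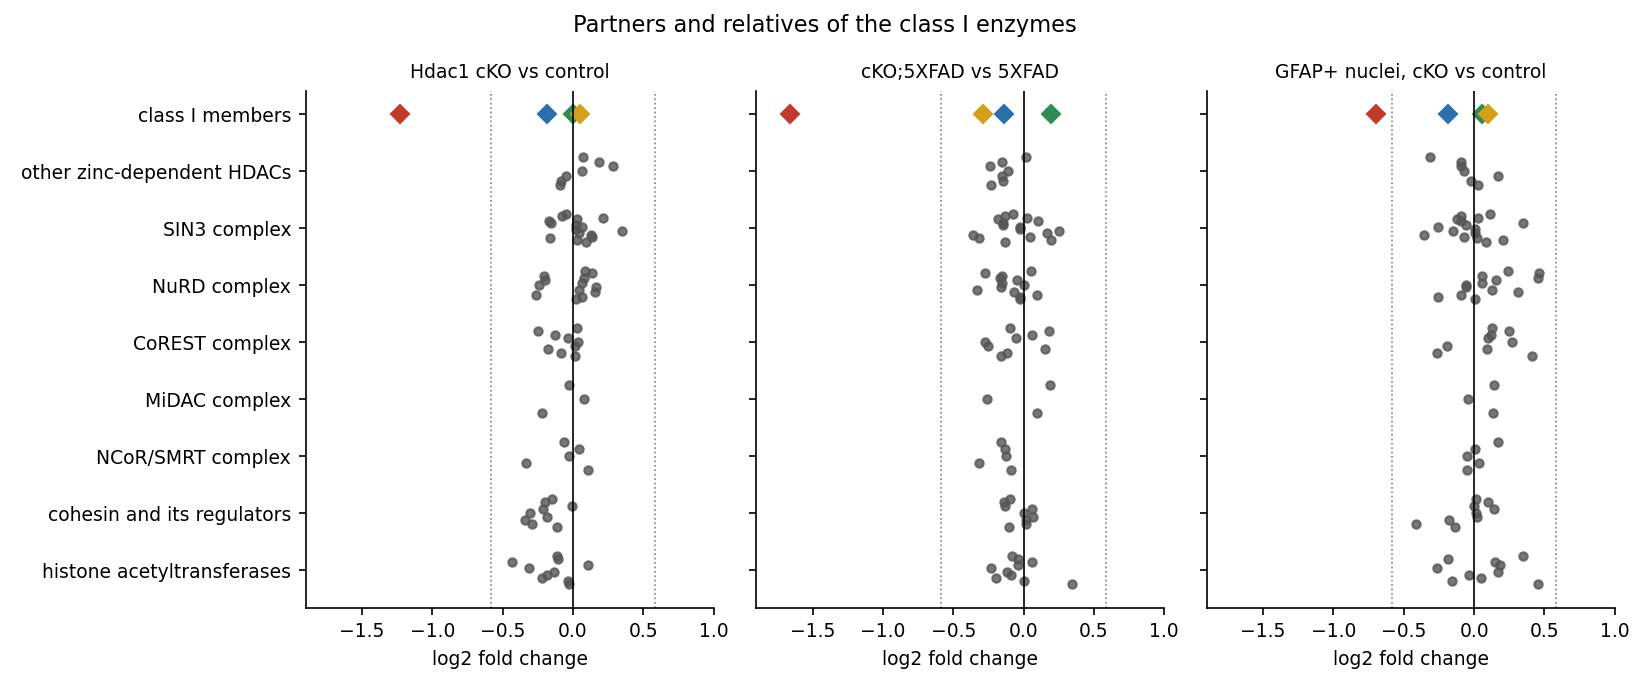
Log2 fold change (horizontal axes, log2(FPKM + 1) scale) of the class I genes (diamonds, Hdac1 red, Hdac2 blue, Hdac3 green, Hdac8 yellow) and of 70 partner and related genes (grey points, by list) in the comparisons of Hdac1 cKO with control, compound with 5XFAD, and cKO with control nuclei; dotted lines mark a 1.5-fold change. No grey point lies beyond the dotted lines, with extremes of -0.44 and 0.46, and Hdac1 lies below the lower one in all 3 panels.

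Over 20 hippocampal libraries, after taking each group's mean away, Pearson's r between pairs of members lay between -0.12 and 0.03. Correlations with other genes were taken with the group means left in. Differences between genotypes enter them, and they cannot be set beside those between members. Among the 8266 genes that averaged 5 FPKM or more, those most like Hdac1 over the same libraries were Prelp (r = 0.74), Msx1os (r = 0.73) and Luc7l3 (r = 0.72). Prelp, an extracellular matrix protein gene, had means of 12.7 FPKM in control, 6.59 in Hdac1 cKO, 12.6 in 5XFAD and 7.97 FPKM in compound mice. Msx1os had 10.9, 2.48, 6.00 and 2.74 FPKM in the same order. For Hdac2 the nearest were Otud6b (r = 0.76), the cohesin gene Stag2 (r = 0.70) and Gal (r = 0.69), for Hdac3 Prdx3, Lmbrd1 and Larp6 (r = 0.73 to 0.74), and those near Hdac8 included Fgd4 (r = 0.83) and Uxs1 (r = 0.74). These correlations are descriptions over libraries that share groups and differ in depth.

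The labels were checked with genes outside the family. Thy1, whose promoter drives the 5XFAD transgenes, was at 303 to 388 FPKM in hippocampus without and 1563 to 2357 FPKM with 5XFAD. Gfap was at 23.4 to 32.0 FPKM without and 81.3 to 176 FPKM with it. Hdac1 checks the Cre label only in part, because the exons that are removed are not given in the sources used here and a value per gene does not show where on the transcript the remaining fragments lie. A 3′ fragment outside the removed exons would be counted from a deleted allele too.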

How the data were processed

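The members and the lists were chosen with earlier results of these data known. The deposited files hold FPKM, 1 value per gene and library. For hippocampus the authors made 3′ Digital Gene Expression libraries, aligned reads with Tophat2 and computed FPKM with Cufflinks (2.0.0 in the submitters' processing notes) on UCSC mm9 genes. GFAP+ nuclei were sorted from cortex and made into full-length SMART-Seq libraries. Not analysed here were control sample 2 of the nuclei and the 6 samples for ChIP-seq.

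Values became log2(FPKM + 1). Genes that averaged 0.5 FPKM or more in the groups compared were tested with limma 3.58.1 (R 4.3.3; trend, robust moderation, two-sided, Benjamini-Hochberg over all genes tested), since the study's methods name thresholds but no test. The fits were also run on simulated data, and the outcome is not given here. Members also had exact permutation tests. A test of the class I sum was planned but not run, and the sum is given as a description only. Relative depth, from the steps between values of genes under a mean of 0.5 FPKM, and the fragment numbers were worked out after seeing the data. Each library was taken as 1 mouse, and where that does not hold p-values measure only the spread between samples.

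Copies were found with blastn 2.17.0 (megablast, word size 20, E under 1e-10) in mm9 from GENCODE vM1 transcripts. Genes were named by a fixed rule: the members, any listed partner called in a comparison of Hdac1 loss, Gfap, Thy1 and Ttr as label checks, and the 3 genes most like each member, of which 1 is not reported here. Sin3a, Chd3, Smc1a, Rad21, Smc3, Hat1, Kat8, Hdac4 and Hdac11 were chosen after their values were seen. Alternatives were another pseudocount, filter, scaling, variance setting or threshold, all 4 groups in 1 fit, ratios of mean FPKM, Ttr as a covariate, a replicate block and leaving out each library.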

Additional observations from a re-analysis of the deposited data

Results flagged for a closer look

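Groups were tested for a library far from the rest, except the control nuclei, where 3 samples were too few. Of 45 sets of values tested, 2 had one, and chance gives about 1 in 20 where values are normally distributed. Both were of Ttr, the choroid plexus gene, and none was of a class I member, of their sum or of the ratio of Hdac2 to Hdac1. Hdac1 cKO mouse 5 had 1608 FPKM of Ttr against 56.5 to 106 FPKM in the other Hdac1 cKO mice, and 2.36 FPKM of Hdac1, the lowest of its group. Compound mouse 1 had 13910 FPKM of Ttr against 58.9 to 265 FPKM in the other compound mice, and 1.82 FPKM of Hdac1, between the others. Without Hdac1 cKO mouse 5 the log2 fold change of Hdac1 against control was -1.19.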

How the results depend on the processing

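Hdac1 kept its direction under every setting tried in the comparisons with and without Cre, and no relative was called under any alternative in any comparison. As a ratio of mean FPKM, without a pseudocount or a test, the log2 change of Hdac1 was -1.53 in Hdac1 cKO against control and -2.10 in compound against 5XFAD mice. In nuclei its call was lost with quantile normalization (-0.69, unadjusted p = 0.0559), without trend and robust options (-0.70, unadjusted p = 0.0512) and without moderation (-0.70, unadjusted p = 0.0980) in limma. With a pseudocount of 0.1 the Hdac1 interaction was -0.60 (unadjusted p = 0.0482, adjusted p = 0.558, against 0.439 to 0.804 over all settings) in limma and passed the thresholds.

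Leaving out 1 library at a time gave Hdac1 changes of -1.34 to -1.09 in Hdac1 cKO against control, with 9 of 9 called and 3 of 9 at an adjusted p under 0.05, -1.73 to -1.56 in compound against 5XFAD, with 11 of 11 called, and -0.97 to -0.42 in nuclei, with 3 of 7 called. The Hdac1 change with 5XFAD in mice with intact Hdac1 was -0.0511 to 0.20. The sign of uncalled relatives turned in some of these: in Hdac1 cKO against control, Hdac3 ran from -0.0813 to 0.11 and Hdac8 from -0.0933 to 0.23; in 5XFAD against control, Hdac2 ran from -0.0572 to 0.16, Hdac3 from -0.14 to 0.0710 and Hdac8 from -0.15 to 0.12. In compound against 5XFAD mice Hdac2 ran from -0.25 to -0.0475, Hdac3 from 0.0689 to 0.30 and Hdac8 from -0.45 to -0.12. Hdac2 ran from -0.0226 to 0.18 in compound against Hdac1 cKO mice and from -0.0739 to 0.15 in the interaction, and in nuclei Hdac2 ran from -0.33 to -0.0306 and Hdac3 from -0.12 to 0.28.

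Replicate numbers did not pair the libraries (correlations of deviations -0.11 to 0.08). With a replicate block, in which a library whose number has no partner carries no weight (Hdac1 cKO 5, 5XFAD 6 or nuclei cKO 2 in these comparisons), Hdac1 was -1.19 (unadjusted p = 0.000223, adjusted p = 0.159) in Hdac1 cKO against control, -1.66 (adjusted p = 0.0194) in compound against 5XFAD and -0.82 (unadjusted p = 0.0044, adjusted p = 0.934) in nuclei by limma, and 499, 204 and 426 genes were called. Without the block, 500, 191 and 384 were called from the same libraries and 480, 184 and 389 from all. That fit gave Hdac3 0.0191 and Hdac8 -0.0071 in Hdac1 cKO against control, the same values as leaving out cKO 5 with no block. In 5XFAD against control, where 5XFAD 5 and 6 had no partner, it gave Hdac2 -0.0167, Hdac3 0.0354 and Hdac8 0.24. In compound against 5XFAD it gave Hdac8 -0.45 (unadjusted p = 0.0364, adjusted p = 0.791 in limma), against -0.29 in the main fit. Leaving out 5XFAD 6 with no block gave Hdac8 -0.45 as well (unadjusted p = 0.0884 in limma). With Ttr as a covariate, Hdac1 cKO against control gave Hdac3 0.0785 and Hdac8 0.36 (unadjusted p = 0.433 in limma), where Hdac8 was 0.05 in the main fit. The same covariate gave Hdac2 -0.0372 and Hdac3 0.0139 in 5XFAD against control. Quantile normalization gave Hdac3 0.0115 in Hdac1 cKO against control. All these values were uncalled, and the cause was not tested.

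At an adjusted p under 0.05 in limma, 22 genes were called in Hdac1 cKO against control, 1 in compound against 5XFAD, 102 in 5XFAD against control, 211 in compound against Hdac1 cKO, 2 in nuclei, 2 over both backgrounds and 0 in the interaction, where 586 passed the study's thresholds. With a pseudocount of 0.1 the counts rose to 325 in compound against 5XFAD, 641 in 5XFAD against control and 359 over both backgrounds, and without moderation 226 genes were called in nuclei. Depth is lowest for Hdac8 and residual Hdac1, with as few as 9 and 5 fragments in a library. Scaling by RefSeq transcript length was not run. GENCODE lengths, chosen after seeing the data, were used for the order of the members, and the class I sums given here are plain sums of FPKM.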
